A study of Mus musculus with 3 samples.

Results

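Small nucleolar RNAs (snoRNAs) are short noncoding RNAs that guide the chemical modification of other RNAs, chiefly ribosomal RNA. The rows annotated as snoRNA genes were examined in an RNA-seq table of mouse cortical neurons. A row was taken when its transcript identifier, without version, belongs to a gene of type snoRNA in GENCODE mouse release M21. The rule found 385 rows, for 385 gene identifiers, among 84660 rows of the table. Their median span in the table is 121 bases. For 383 of them the span equals the annotated length, and these run from 54 to 325 bases. A Snora43 row spans 2982 bases in the table and 139 in the annotation, and Snora17 138 and 132 bases.

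Total RNA of wild-type (WT) mouse cortical neurons under the control treatment (CON) was sequenced in 3 libraries, called replicates 1 to 3, which form the only group. Nothing in the labels says that the libraries came from separate cultures, so their spread may in part be technical. With a single group, the comparisons are between sets of snoRNA rows inside each library. Values are TPM, a level per length that sums to 1000000 over all rows of a library. Neuronal marker genes were high, with 5 of 5 at 1 TPM or more and a median of 234 TPM, and 4 of 4 astrocyte markers also passed 1 TPM (median 74.4). Of the other cell types, 2 of 3 oligodendrocyte lineage, 0 of 3 microglial and 0 of 3 endothelial markers passed, and Tmem119 and Cldn5 were listed at 0 in each library.

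SnoRNAs fall into 2 structural classes. C/D box snoRNAs carry a C box near the start and a D box near the end, bind fibrillarin and direct ribose methylation, whereas H/ACA box snoRNAs end in an ACA box, bind dyskerin and direct the conversion of uridine to pseudouridine. Most mammalian snoRNAs are encoded in introns of a host gene, are trimmed out of the excised intron and have no promoter of their own. A few take part in cutting the ribosomal RNA precursor, and the brain expresses large imprinted clusters whose targets are partly unknown.

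The following sequences belong to the members on which the results turn, read from the RefSeq GRCm38.p6 genome at the coordinates of the table, which uses the same build (mm10). The first 3 lie in Gas5, and Gm22357 and Gm23212 are SNORD24 and SNORD44 by their RefSeq product. Gm24895 and Gm23600 lie in Rian, and Snord64 in Gm38393, a gene model that shares the Snrpn locus. In these lines capitals mark the first TGATGA, the letters of the C box core, and the last CTGA, those of the D box, where present. The TGATGA starts at base 7 to 9 of Gm22357, Gm23212, Gm24895 and Snord64 and at base 19 of Gm23600. A mark gives the letters found and does not assign a C box.
Snord78, chr1:161036984-161037049, plus strand: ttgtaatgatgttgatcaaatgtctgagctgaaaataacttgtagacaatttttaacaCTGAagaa
Gm22357, chr1:161036057-161036139, plus strand: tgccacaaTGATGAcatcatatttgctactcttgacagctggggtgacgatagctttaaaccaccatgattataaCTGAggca
Gm23212, chr1:161036682-161036741, plus strand: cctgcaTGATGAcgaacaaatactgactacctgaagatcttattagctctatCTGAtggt
Gm24895, chr12:109646129-109646202, plus strand: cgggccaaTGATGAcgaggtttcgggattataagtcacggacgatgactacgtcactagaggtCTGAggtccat
Gm23600, chr12:109643748-109643818, plus strand: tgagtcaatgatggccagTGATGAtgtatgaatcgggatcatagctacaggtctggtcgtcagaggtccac
Snord64, chr7:59978808-59978874, minus strand: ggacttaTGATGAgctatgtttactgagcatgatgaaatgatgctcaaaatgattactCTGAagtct

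Snora65, in Rpl12, and Snora31, in Tpt1, were the highest H/ACA members by symbol overall and among those in a host without exon overlap. Capitals mark the ACA that stands 3 bases from the end.
Snora65, chr2:32963291-32963420, plus strand: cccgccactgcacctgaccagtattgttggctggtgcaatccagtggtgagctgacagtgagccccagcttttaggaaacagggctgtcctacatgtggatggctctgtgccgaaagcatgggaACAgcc
Snora31, chr14:75847905-75848034, plus strand: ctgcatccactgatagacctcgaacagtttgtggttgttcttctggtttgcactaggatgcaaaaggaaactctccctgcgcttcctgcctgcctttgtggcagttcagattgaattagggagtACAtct

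Snhg14, the long host RNA of the imprinted Prader-Willi region, holds many near-identical copies. Gm24966 is its only member with a mean of at least 1 TPM, and Gm24528 (SNORD115 by RefSeq product) and Gm22584 (SNORD116) were at 0 in each library. Capitals mark the first TGATGA, at base 37 in Gm24966 and base 8 in the others, and the last CTGA. Gm24528 holds the same letters at base 37 as well, unmarked, so the mark in Gm24966 need not be its C box.
Gm24966, chr7:59344073-59344151, minus strand: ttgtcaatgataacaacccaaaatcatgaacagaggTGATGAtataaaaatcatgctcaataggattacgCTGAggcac
Gm24528, chr7:59415590-59415668, minus strand: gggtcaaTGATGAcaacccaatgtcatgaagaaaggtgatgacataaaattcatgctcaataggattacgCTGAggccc
Gm22584, chr7:59713534-59713625, minus strand: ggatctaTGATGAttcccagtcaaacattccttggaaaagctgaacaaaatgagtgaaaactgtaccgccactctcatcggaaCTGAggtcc

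The boxes were searched in all members on their own strand only, since the RNA is read from that strand, and TGATGA and CTGA may share bases. Here the class came from the symbol (Snord or Snora) or, for the many members with model names, from the RefSeq product of an overlapping gene, which 332 of 385 members have. TGATGA was found in 69.2% of 156 C/D members and in 0.641% of windows of the same length directly upstream. CTGA was found in 98.7% of C/D members and in 34.6% of their upstream windows. A TGATGA followed by a CTGA occurred in 67.9% of C/D members and in 0% of upstream windows, and in 1 of 159 H/ACA members. An ACA 3 bases from the end closed 66.0% of these H/ACA members, against 0.629% of upstream windows and 1.28% of C/D members. Among the 68 members with neither name, 36.8% held TGATGA followed by CTGA. Snord78, the second highest member, holds no exact TGATGA, and Gm23600 holds no CTGA.

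Most snoRNA rows were low. A mean of at least 1 TPM was reached by 126 of the 385 members, or 32.7%, against 62.4% of all rows of the table. The median of the members' mean levels was 0.36 TPM, against 2.83 TPM over all rows. No read was seen for 79 members in any library, 196 members were above 0 in each library, and 16 members reached 10 TPM. The line at 1 TPM ran through closely spaced values: Gm24016, Gm24044 and Snord4a lay just above it at 1.03, 1.01 and 1.006 TPM, and Snord14a, Gm22200 and Gm22620 just below it at 0.999, 0.975 and 0.970 TPM.

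The depth behind these levels is small. The rows are short and their levels per length were low as well, and the part of each in the low counts was not tested. TPM times row length was a whole multiple of a fixed value per library for 383 of the 385 members, within 0.01 of a read, so their reads could be counted. The members together held 3938, 3039 and 3822 reads in replicates 1 to 3. At the median length of 121 bases, 1 read is worth 0.16, 0.19 and 0.18 TPM, and a count of 0 allows up to 3 reads, or 0.48, 0.57 and 0.54 TPM, for counting error only. At least 10 reads in each library were held by 53 members, or 13.8% of those with whole reads, against 71.1% of all rows with whole reads. The 10 highest members held 45.4% of the members' reads. Among the 53 better covered members the median coefficient of variation over the libraries was 21.4%, and counting error alone gives 18.7% at their depth. Between pairs of libraries the members' log2 levels correlated with a Pearson r of 0.88 to 0.90, a description over members and not over samples.

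The highest member by far was Gm24895, an unclassed snoRNA gene in Rian. Rian is a maternally expressed long noncoding RNA of the Dlk1-Dio3 imprinted region. Gm24895 stood at 234, 213 and 237 TPM in replicates 1 to 3, from 888, 682 and 802 reads, a mean of 228 ± 13.1 TPM (SD, n = 3). Snord78, a C/D guide in Gas5, followed at 74.5, 61.7 and 84.9 TPM (73.7 ± 11.6, n = 3). These are the only members with a mean above 50 TPM, and their values did not overlap in the 3 libraries.

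Gas5 and Rian also held the next 3 members. Gm22357 (SNORD24) stood at 27.0, 27.6 and 51.2 TPM, and Gm23212 (SNORD44) at 28.6, 25.4 and 34.7 TPM. Gm23600 stood at 27.8, 23.1 and 18.5 TPM. The values of these 3 members overlapped, so their order is not fixed by the data. The first pair was highest in replicate 3 and Gm23600 lowest there.

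Outside these hosts the levels fell below 25 TPM in each library. Snord64, the C/D snoRNA of the Snrpn locus, stood at 13.7, 17.3 and 20.9 TPM. Snora65, an H/ACA guide in the ribosomal protein gene Rpl12, stood at 11.4, 12.5 and 21.4 TPM. Snord22, in Snhg1, stood at 11.1, 12.7 and 15.3 TPM, and Gm24452 (SNORD27), in the same gene, at 11.1, 10.3 and 16.1 TPM. Each of these 4 was highest in replicate 3, as were 37.3% of all rows with a mean of at least 1 TPM. Mir5117, a Gas5 row with a microRNA symbol that the annotation types as snoRNA, stood at 11.6, 11.0 and 19.3 TPM.

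Members were placed in the gene that contains them on the same strand. A host was found for 336 members, in 192 genes, of which 161 are protein-coding and 31 noncoding. Of the hosts, 126 hold 1 member and 30 hold 3 or more. By position, 151 members overlap an exon of some transcript of the host, 185 lie inside the host gene and overlap no exon, and 49 have no same-strand host. The 185 are called intron-only, although such a member need not lie between exons of every host transcript. Gm23600 and Gm24966, for example, lie outside the host transcript with most reads.

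Level followed position. Of the exon-overlapping members, 88 of 151 (58.3%) reached 1 TPM, of the intron-only members 34 of 185 (18.4%) and of those without a host 4 of 49 (8.16%), beside 62.4% of all rows of the table. The median level per library was 1.402 ± 0.08 TPM for exon-overlapping and 0.18 ± 0.02 TPM for intron-only members (SD, n = 3). On the log2(TPM + 0.1) scale, which understates differences of low rows, the medians differed by 2.43 ± 0.05 in the same direction in each library (two-sided exact sign-flip permutation test, p = 0.25, n = 3). This is the smallest p that 3 libraries allow, here and below, so no comparison could reach 0.05. Within the 25 hosts that hold both kinds, the exon-overlapping members were higher in 21, with a median difference of 1.23 (added after the data were seen). With only members that have at least 1 read in each library, 119 against 68, the difference was 1.13.

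**Figure D1:**
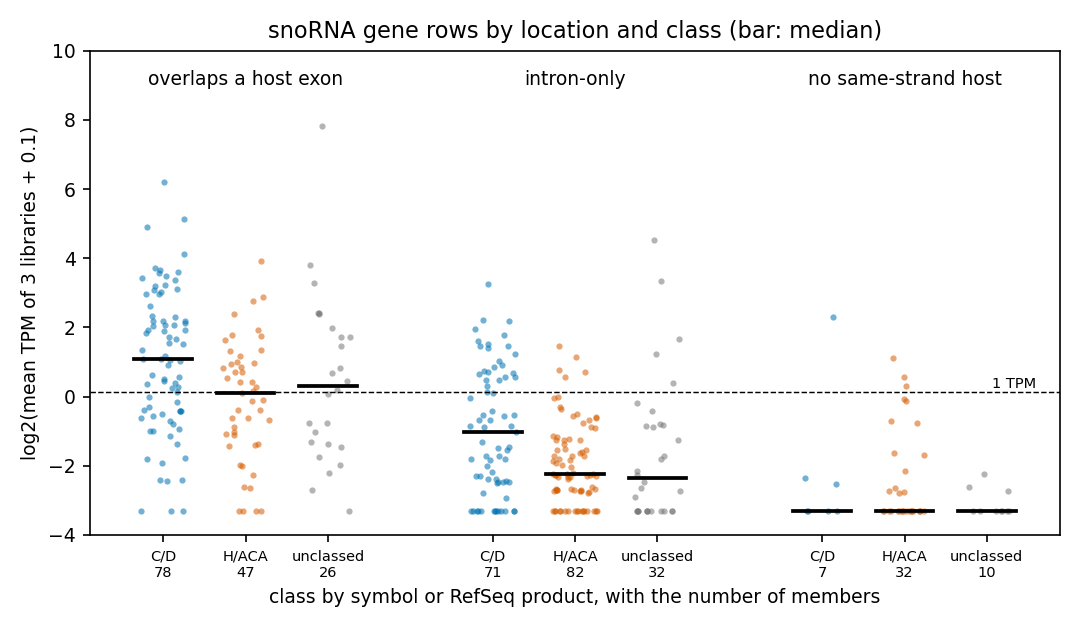
Each point is a snoRNA row, with its mean TPM over 3 libraries on a log2(TPM + 0.1) axis, grouped by position relative to the host and by class, and bars are group medians. Exon-overlapping members are mostly above the dashed line at 1 TPM, intron-only members mostly below it, and most members without a host are at 0.

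For 80 of the exon-overlapping members, an exon of a host transcript in the table holds the whole member. Where several transcripts did so, the one with the highest mean TPM was taken as the covering transcript. This choice can only lower the member relative to it. How reads that fall on both rows were assigned is not given in the sources used here, so the 2 rows may share reads. In 75 of the 75 pairs with whole reads, the member held no more reads than its covering transcript. The covering transcript also draws reads from its other sequence, so this count cannot show whether reads were shared. Sharing of reads was not tested. The covering transcript had a mean of at least 1 TPM for 78 of the 80, and for 52 of those 78 it was annotated as a retained intron. Compared per length, 61 of the 78 members stood at less than 50% of their covering transcript, 12 within 2-fold of it and 5 above 2-fold. The median difference, member minus covering transcript, was -2.81 ± 0.05 log2 units (exact sign-flip p = 0.25, n = 3).

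The members above their covering transcript were 7. Snora65 stood at 15.1 ± 5.48 TPM against 3.72 TPM for the retained-intron transcript of Rpl12 around it, 4.05 times its level. Snord64 was 2.73 times, Gm22077 in Rpl3 2.57 times, Gm24895 2.56 times and Gm23474 in Rian 2.10 times their covering transcript. Gm22879 (SNORD36, in Rpl7a) and Snord21 (in Rpl5) were 1.63 and 1.16 times. These were named after their values were seen. Rpl12, Rpl3, Rpl5 and Rpl7a encode ribosomal proteins, and their transcripts with most reads stood at 1.96, 1.68, 19.3 and 15.4 TPM on average. These are values of single transcripts and not of whole genes. Across ribosomal protein hosts they ran from 0.94 TPM (Rpl23a) to 224 TPM (Rpl32). Snora65 has 4 loci at least 90% identical in the genome, itself included, and the part of such copies was not tested.

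Gas5 is a noncoding RNA gene whose known products are the snoRNAs in its introns. Its 9 members each reached 1 TPM, with a median of 12.1 TPM and a 17.3-fold range from Snord78 down to Gm25789 (SNORD81) at 5.65, 4.26 and 2.88 TPM. All 9 overlap an exon of one of the many retained-intron transcripts of Gas5. The host transcript with most reads stood at 29.9, 27.9 and 38.9 TPM. It was highest in replicate 3, as were 8 of the 9 members, and Gm25789 was the exception. Of all rows with a mean of at least 1 TPM, 37.3% were highest in that replicate.

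Snhg1, another noncoding host, holds 8 members, SNORD22 and SNORD25 to SNORD31 by symbol or RefSeq product. All 8 reached 1 TPM, with a median of 6.86 TPM. Gm25894 (SNORD26) stood at 13.8, 8.33 and 9.92 TPM and the lowest, Gm23246 (SNORD31), at 2.62, 2.42 and 4.25 TPM. Snhg1 itself has no transcript among the matched rows, so its level is not given. In both genes, no member was at 0 in any library.

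Rian holds 13 members, of which 8 reached 1 TPM and none was at 0 throughout. Their range was 764-fold, from Gm24895 down to Gm27604 at 0.27, 0.32 and 0.30 TPM, which is 1 read in each library. The host transcript with most reads stood at 272, 256 and 219 TPM. It was lowest in replicate 3, as were 7 of the 13 members, while 4 were highest there. Of all rows with a mean of at least 1 TPM, 36.6% were lowest and 37.3% highest in that replicate. For Gm27604, at 1 read in each library, the order only reflects what 1 read is worth. Gm23600, which overlaps no exon, had 101, 71 and 60 reads, and Gm23474 stood at 10.7, 10.2 and 7.88 TPM. Rian members carried 26.4% and Gas5 members 18.6% of all member reads.

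Snhg14 holds 14 members, none of which overlaps an exon. Of these, 1 reached 1 TPM and 6 were at 0 in each library, and the median was 0.08 TPM, with the host transcript at 11.0 ± 2.15 TPM (n = 3). Gm24966 stood at 9.14, 11.4 and 9.70 TPM, from 37, 39 and 35 reads. The other 13 stood at 0.46 TPM or less, with Gm26498 highest among them. By RefSeq product 9 of the members are SNORD115 and 2 are SNORD116, and 0 of these reached 1 TPM.

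Copies of these sequences were counted in the genome, and their part in the levels was not tested. The sequence of Gm24528 occurs 33 times in the genome without a mismatch and that of Gm22584 38 times. Gm24966 occurs once, and it matches Gm24528 at 69 of 79 bases. An exact match found once is not particular to it: 10 of the 14 Snhg14 members have no second exact copy, and Gm26498, the highest of the low members, has 2 exact copies. A second locus at least 90% identical exists for 12 of the 14, and of the other two Gm24966 is the highest member and Gm22496 was at 0 in each library. A read that maps to several places may have been left out or assigned in a way not given in the sources used here, so a 0 for a copied member does not show that its RNA is absent. Over all members, 15 have more than 1 exact copy, of which 2 reached 1 TPM and 6 were at 0. Of 108 members with a second copy at least 90% identical, 24 (22.2%) reached 1 TPM, against 101 of 276 members (36.6%) without one.

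**Figure D2:**
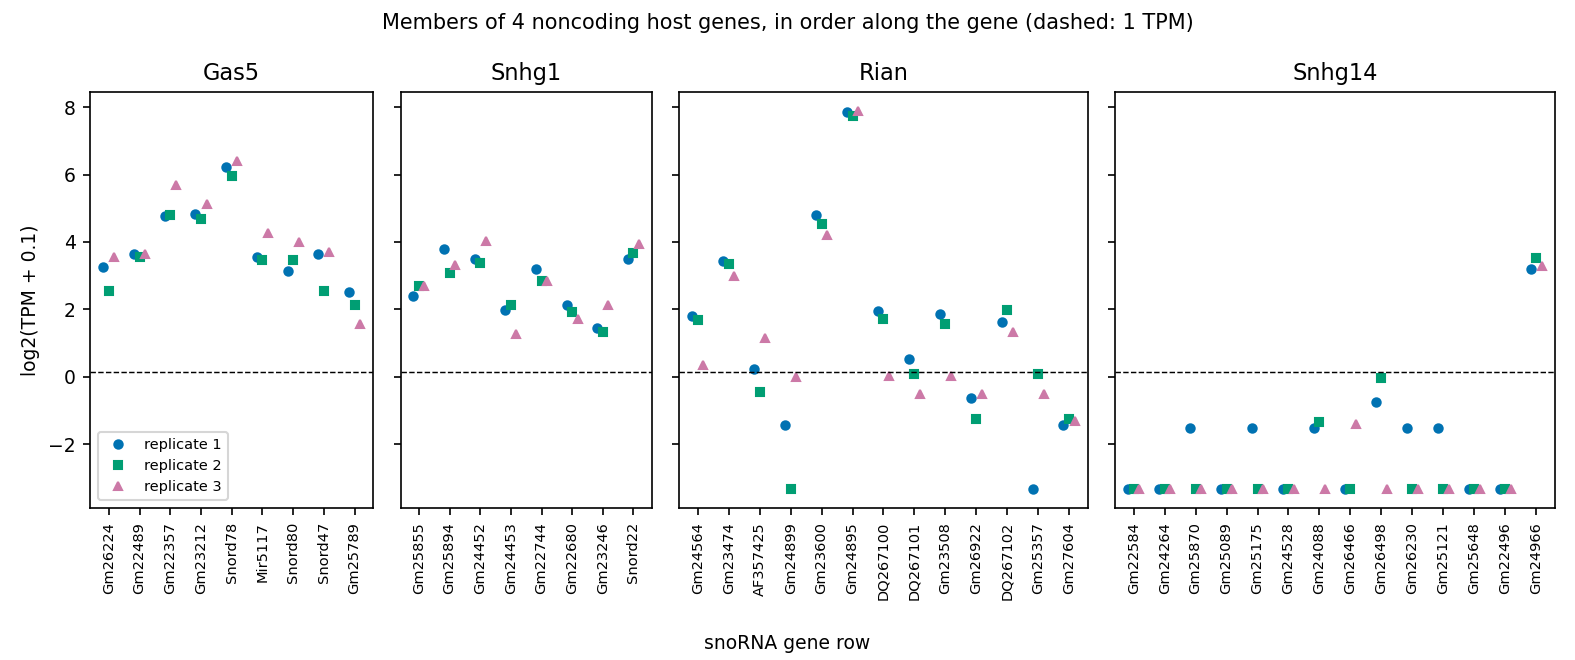
The members of Gas5, Snhg1, Rian and Snhg14 are shown in the order of transcription along each gene, with 1 symbol per library on a log2(TPM + 0.1) axis and a dashed line at 1 TPM. All members of Gas5 and Snhg1 lie above the line, Rian members spread from 0.30 to 228 TPM on average, and Gm24966 is the only Snhg14 member above it.

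The other hosts with many members mostly code for proteins of ribosome synthesis and translation. Taf1d, a subunit of the RNA polymerase I initiation factor, holds 8 members, of which 7 reached 1 TPM, led by Gm24357 at 3.95, 3.44 and 8.28 TPM. The translation initiation factor gene Eif4a2 holds 5, all at 1 TPM or more, led by Snord2 at 7.92, 8.38 and 9.20 TPM beside a host at 149 ± 5.59 TPM. Nop56, which codes for a core protein of C/D particles, holds 5, of which 3 passed. Rpl4 holds 5, of which 2 passed, although its own transcript stood at 214 ± 11.5 TPM.

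Hosts whose symbol starts with Rpl, Rps, Eef or Eif, mostly genes for ribosomal proteins and translation factors, held 74 members in 38 genes. By its symbol this set includes Eif2ak3, a kinase gene, with Gm23346 at 0.11 TPM. Of the 74 members 44 reached 1 TPM, beside 32.7% of all members and 62.4% of all rows of the table. Of their exon-overlapping members 29 of 39 passed, with a median of 1.84 TPM, and of their intron-only members 15 of 35, with a median of 0.64 TPM. None of the 74 was at 0 in each library. The lowest, Snord15a in Rps3, had 1 read in replicate 1 only, beside a host at 90.96 ± 14.9 TPM.

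The intron-only members are the ones free of annotated exons on their strand. The highest members unclassed by symbol among them were Gm23600, Gm24966 and Gm23301 (SNORD58 by RefSeq product, in Rpl17). Gm23301 stood at 8.70, 7.12 and 12.5 TPM. The highest C/D members by symbol were Snord32a in Rpl13a at 4.94, 5.02 and 3.69 TPM, Snord59a in the ATP synthase gene Atp5b at 3.69, 3.75 and 5.92 TPM, and Snord49a in 2410006H16Rik at 3.52, 1.93 and 4.56 TPM. Of H/ACA members by symbol, Snora31 in Tpt1 stood at 3.30, 1.78 and 2.86 TPM. Snora41 in Eef1b2 stood at 0.74, 2.10 and 1.99 TPM and Snora62 in Rpsa at 0.79, 0.16 and 0.88 TPM. Each value of the C/D members named by symbol exceeded the Snora41 and Snora62 values except in replicate 2, where Snord49a at 1.93 lay below Snora41 at 2.10 TPM. With classes from the symbol or RefSeq product, 5 intron-only H/ACA members reached 1 TPM. Among them was Gm22748 in Odc1, with a mean of 1.37 TPM against 0.61 TPM for Snora62.

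Intron-only members were far below their hosts. In 124 hosts of at least 1 TPM, 171 members had a median of 0.20 ± 0.04 TPM and their hosts one of 13.1 ± 0.21 TPM. The median difference was -5.75 ± 0.21 on the log2(TPM + 0.1) scale (exact sign-flip p = 0.25, n = 3), and it rests on the pseudocount, with -3.47 at a pseudocount of 1. The 171 include Gm23600 and Gm24966, which lie outside the host transcript whose level was taken. Of the 171, 1 was above its host. Snord59a, for example, stood at 4.45 ± 1.27 TPM beside Atp5b at 325 ± 25.5 TPM. Across 183 intron-only members with a host value, the log2 levels of member and host correlated with a Pearson r of 0.37 ± 0.05 and a Spearman rho of 0.35 ± 0.05, and across 138 exon-overlapping members with 0.29 ± 0.06 and 0.27 ± 0.06. Members of 1 host share its value, so these are descriptions.

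**Figure D3:**
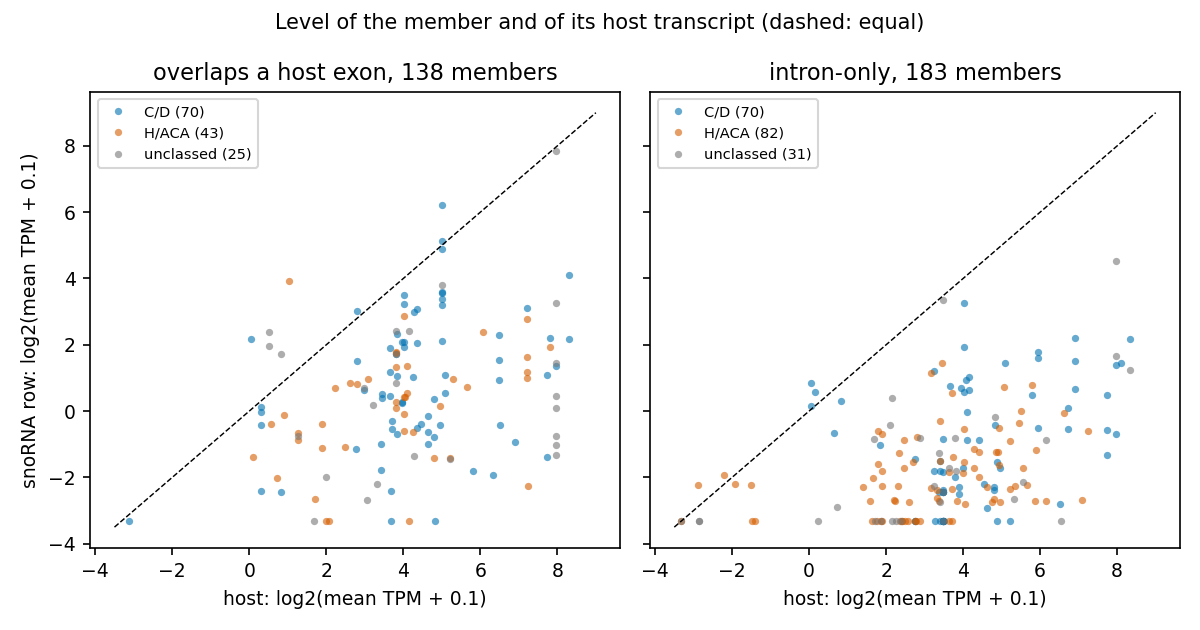
Each point is a member, with the mean level of its host transcript on the x axis and its own on the y axis, both as log2(mean TPM + 0.1), for exon-overlapping members on the left and intron-only members on the right. Points below the dashed line are lower than their host, as most are in both panels.

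The position inside the intron, given where a member lies between exons of the host transcript with most reads, differed between the classes. For 58 intron-only C/D members the median distance from the end of the member to the 3′ splice site was 147.5 bases, and 23 of them (39.7%) lay at 50 to 100 bases. For 80 H/ACA members the median was 1177 bases, and 7 (8.75%) lay in that window. The introns differed as well, with a median length of 568 bases for C/D and 2928.5 bases for H/ACA members. A short distance to the 3′ splice site is a known feature of C/D snoRNAs, whose assembly is coupled to splicing.

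Members in short introns had the higher levels, which is given as a description with no test. Of 41 members in introns under 500 bases, 19 (46.3%) reached 1 TPM with a median of 0.64 TPM, and of 123 members in longer introns 12 (9.76%) with a median of 0.15 TPM. The hosts of the first set were higher too, with a median of 29.7 TPM against 10.4 TPM. The part of the host level in this difference was not tested. The line at 500 bases was chosen after the data were seen.

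**Figure D4:**
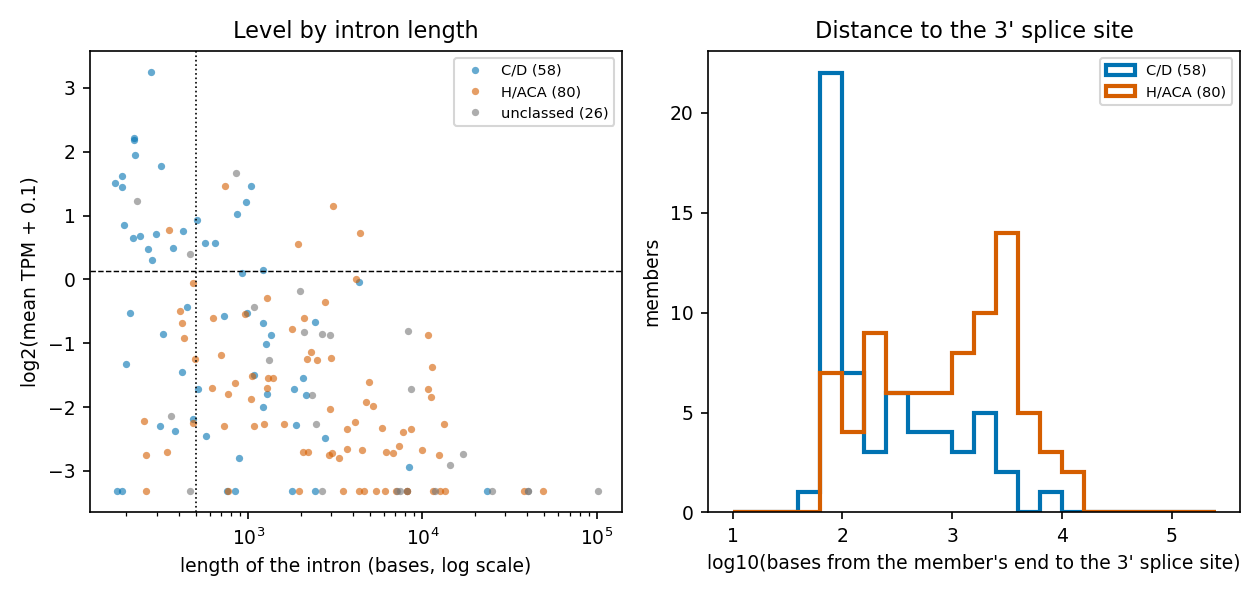
The left panel plots the level of intron-only members, as log2(mean TPM + 0.1), against the length of their intron on a log axis, with lines at 500 bases and 1 TPM, and most members above 1 TPM lie at short lengths. The right panel counts members by log10 of the distance to the 3′ splice site, where C/D members peak at 50 to 100 bases and H/ACA members lie mostly farther away.

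By symbol, 77 members are C/D and 40 are H/ACA. The C/D rows had a median of 1.05 ± 0.02 TPM per library and the H/ACA rows 0.59 ± 0.03 TPM. The H/ACA minus C/D difference of medians was -0.75 ± 0.08 log2 units, lower in each library (exact sign-flip p = 0.25, n = 3). The share at 1 TPM or more was 35.8 ± 3.82% for H/ACA and 51.1 ± 0.75% for C/D rows, a difference of -15.2 ± 3.12 percentage points (exact sign-flip p = 0.25, n = 3). H/ACA members are longer, with a median of 133 against 78 bases. In reads, not divided by length, the H/ACA medians were 4.5, 4 and 4.5 reads per row in replicates 1 to 3, and the C/D median was 4 reads in each. On the log2 scale of reads scaled by library the difference was 0.036 ± 0.035 (exact sign-flip p = 0.50, n = 3), where the pseudocount is worth 7.80 to 8.91 reads and shrinks differences.

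With classes from the symbol or RefSeq product, the difference was larger, at -1.85 ± 0.11 for 161 H/ACA and 156 C/D members. In reads not divided by length it kept its sign, at -0.32 ± 0.05, with medians of 1 read per H/ACA row in each library and 4, 3 and 3 reads per C/D row. Among these, 76 C/D members (48.7%) and 31 H/ACA members (19.3%) reached 1 TPM. Position differed too, with 50% of C/D and 29.2% of H/ACA members overlapping an exon, and 4.49% and 19.9% without a host. Within the exon-overlapping members alone the difference was -1.16 ± 0.19, and within the intron-only members -1.31 ± 0.69, each negative on average. These fits were added after the data were seen. Level and length correlated with a Spearman rho of -0.33 ± 0.02 across 383 members, -0.28 ± 0.01 within C/D and 0.16 ± 0.04 within H/ACA members.

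The kind of host gave no stable difference. Of 34 intron-only members in noncoding hosts 8 (23.5%) reached 1 TPM, and of 151 in protein-coding hosts 26 (17.2%). The noncoding minus coding difference of medians was -0.65 ± 0.81 log2 units (exact sign-flip p = 0.50, n = 3), less than its spread over the libraries. Without the 14 Snhg14 members, 12 of which have a second copy at least 90% identical, it was 0.85 ± 0.60, with the opposite sign.

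Members without a same-strand host were lowest. Their median was 0 TPM in each library, against 0.40 ± 0.08 TPM for the 336 with a host, a difference of 2.31 ± 0.22 log2 units that rests on the pseudocount (exact sign-flip p = 0.25, n = 3). Of the 49, 11 lie inside a gene of the opposite strand, of which 0 reached 1 TPM and 6 were at 0. The other 38 lie wholly inside no gene of the types taken as hosts, on either strand, and 4 of these reached 1 TPM. Snord104 led them at 5.85, 3.63 and 5.004 TPM, followed by Snora43, for which a row was 2.07 TPM, Gm25857 (SNORA44) at 1.38 and Gm25076 (SNORA17) at 1.13 TPM. That is the Snora43 row whose span in the table differs from its annotated length, and its reads did not come out whole. It was placed by its span in the table. For every member, a gene that overlaps it only in part was not taken as its host.

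Of 10 measured members on a list of snoRNAs that act in cutting the ribosomal RNA precursor, 1 reached 1 TPM, Snord22. The share at that level was 32.7% over all members and 62.4% over all rows of the table. The 10 had a median of 0.54 TPM, against 0.36 TPM over all members, and 1 of the 10 was at 0 in each library. The list took the U3 RNA by Snord3 symbols only. The U3 rows Rnu3b1 and Rnu3b2, in Tex14, are therefore not among the 10, and both were at 0 in each library. Snord118, the U8 RNA needed for the large subunit RNAs, had no read in any library, and Snord13, the U13 RNA, had 1 read in replicate 2 only. Each has a second locus at least 90% identical in the genome. Snora73a stood at 0.76, 0.79 and 0.43 TPM and Snora73b at 0.57, 0.68 and 0.32 TPM, both in Snhg3. Snord14a, in Rps13, stood at 0.90, 1.60 and 0.50 TPM and Snord14e, in the heat shock gene Hspa8, at 0.65, 0.77 and 0.97 TPM. U8 and U13 are abundant in cells as mature RNAs, and how much mature RNA of their size these libraries retained was not tested.

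A list of imprinted brain snoRNAs, taken by name or host, gave 30 members. Of these 11 reached 1 TPM, beside 32.7% of all members and 62.4% of all rows of the table, and the median was 0.47 TPM. AF357399, at 0.64 TPM, is on the list by its name only and lies in the ribosomal protein gene Rps16. The 3 highest were Gm24895, Gm23600 and Snord64, and 6 members were at 0 in each library, all of them in Snhg14. No member was hosted in Htr2c, the serotonin receptor gene on the X chromosome.

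MicroRNA loci are the other short intron-encoded rows of the table. Of 655 microRNA rows, 147 (22.4%) reached 1 TPM, against 32.7% of snoRNA rows. Among intron-only rows in hosts of at least 1 TPM, 171 snoRNA rows had a median of 0.20 ± 0.04 TPM and 237 microRNA rows one of 0 TPM. The difference was 1.55 ± 0.21 log2 units (exact sign-flip p = 0.25, n = 3). At 1 TPM or more were 19.1 ± 1.69% of these snoRNA rows and 11.1 ± 0.64% of the microRNA rows, and 34 and 76 rows were at 0 in each library. Among rows with at least 1 read in each library, 65 against 56, the difference was 0.16 ± 0.24, within its spread.

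The genes for snoRNA-binding and assembly proteins were measurable throughout. Of 20 listed names, 19 were measured and all 19 reached 1 TPM, beside 62.4% of all rows of the table, with a median of 7.69 TPM. Each gene is given by 1 transcript, which need not be the one with most reads used for hosts. For Nop56 as a host, that transcript stood at 15.98 TPM. Nop56, of C/D particles, stood at 27.2 ± 1.74 TPM, and the H/ACA protein genes Nop10 and Nhp2 at 19.99 ± 4.14 and 18.7 ± 1.53 TPM. The lowest was Shq1, an assembly factor for H/ACA particles, at 1.75 ± 0.18 TPM.

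The 3 libraries differed little in the direction of member levels. Of the 126 members at 1 TPM or more, 55 (43.7%) were highest in replicate 3, against 37.3% of all rows at that level, and 39 (31.0%) were lowest there, against 36.6%. The members with the widest spread among them rest on few reads. Gm24134, in Rpl7a, had 5, 6 and 0 reads, Snord53, in Wdr43, 9, 14 and 1 reads, and Gm22748 (SNORA42/SNORA80 family, in Odc1) 2, 13 and 10 reads.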

How the data were processed

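Per the labels' protocols, the 3 control libraries came from column-purified total RNA and a KAPA library kit. STAR 2.5.3a and Subread 1.4.6 with featureCounts on build mm10 are named in the submitters' processing notes, beside FastQC 0.11.2. The values used are the TPM that the authors deposited for each transcript. Of 84660 rows, 83017 matched GENCODE M21 on GRCm38, the same build, and 1643 did not.

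The members and lists were chosen with earlier results of these data known. A member's host is the same-strand gene that contains it, and among several the one with the highest level; its value is that of the transcript with most reads. Copies were searched with BLAST 2.17.0 on 22 chromosomes. RefSeq products were taken from genes overlapping at least 50% of a member. Medians of log2(TPM + 0.1) were subtracted inside each library, and the mean, SD and exact sign-flip permutation p (two-sided) are over the 3 libraries. Named are the 10 highest members, the 3 highest intron-only members per class, the 3 highest and the lowest member of each list and of the large hosts, the 3 widest spreads among members at 1 TPM or more, the 3 members on each side of 1 TPM and the extremes of the protein list. Others were chosen after their values were seen. Alternatives were pseudocounts, thresholds, filters, class and host rules and leaving out each replicate. The read recovery and the differences were tested on simulated data. The software was pandas 2.3.3, scipy 1.17.1 and numpy 2.4.6 under Python 3.11.15.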

Additional observations from a re-analysis of the deposited data

How the results depend on the processing

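The number of members at the minimum level was 261 at 0.1 TPM and 16 at 10 TPM, and 123 to 127 without each replicate. With at least 3 reads in each library there were 127 members and with 30 reads 16, and 58 to 66 without each replicate. The H/ACA minus C/D difference turned to 0.036 in reads scaled by library but not divided by length (-0.32 with classes from symbol or RefSeq product), and the difference in shares to 10.4 percentage points at 0.1 TPM. The noncoding minus coding host difference turned to 1.07 with at least 1 read in each library, to 0.017 for sequences found once, to 0.85 without Snhg14 and to 0.28 without Snhg14 and Rian members; the cause was not tested. The differences for exon overlap, for a same-strand host, for microRNA loci and between member and host kept their sign under every alternative run, but their size rests on the pseudocount: with 1 and 0.01 they were 1.03 and 2.91, 0.48 and 5.34, 0.26 and 4.34, and -3.47 and -7.27. Since no p could fall below 0.25, no call could be gained or lost. No paired analysis was possible because there is only 1 group. Few reads limit single low members.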
